A study of Homo sapiens with 36 samples.

Results

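The mitochondrial carrier family, whose genes carry the symbols SLC25A and a number, was followed in human cells while an engineered stress kinase was switched on. Every gene with such a symbol and a summed expected count of at least 100 over the 36 libraries was taken, which gave 44 of the 57665 genes in the tables. Of the 48 rows with a matching symbol, SLC25A52 (88 counts), SLC25A2 (3), SLC25A31 (1) and SLC25A47 (1) fell short, and the members closest to the limit were SLC25A48 with 222 counts and SLC25A18 with 276 counts. The 44 members also passed the filter on low counts, together with 19043 tested genes in all.

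SLC25 proteins sit in the inner mitochondrial membrane, with a few exceptions, and move nucleotides, phosphate, amino acids, carboxylates, cofactors and metals between the cytosol and the matrix, mostly by exchange. They are made in the cytosol and reach the inner membrane through the TOM pore, the small TIM chaperones and the TIM22 translocase. The integrated stress response starts with phosphorylation of eIF2α, which lowers protein synthesis in general but raises translation of ATF4, a transcription factor for genes of amino acid synthesis and transport.

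The cells were U2OS, a human osteosarcoma line, and those of every group, controls included, stably carried Dmr-PERK, the mouse PERK kinase domain joined to the DmrB domain. The ligand AP20187, the dimerizer, brings these molecules together and activates the kinase. ATF4 knockout (ATF4KO) and wild-type (WT) cells were collected without dimerizer (0 h) and 2, 4, 8, 16 and 24 h after its addition at 1 labelled dose, with 3 wells in each of the 12 groups. Cells without Dmr-PERK were not among the groups, so the action of the ligand itself and that of the kinase cannot be told apart. Whether the knockout was 1 clone, and whether the wells were separate cultures, is not stated by the labels, so p-values measure the spread between these wells.

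The libraries held 8608783 to 16265056 counts, of which 4.3 to 5.86% came from mitochondrial genes and 0.198 to 0.24% from the 44 members. ASNS, an ATF4 target, averaged 14.9 ± 0.808 CPM (counts scaled to the library size) in ATF4KO wells at 24 h and 17.3 ± 0.868 CPM in untreated ATF4KO wells (SD, n = 3 each). In WT wells ASNS averaged 429.4 ± 1.41 CPM at 24 h and 61.4 ± 1.81 CPM untreated (SD, n = 3 each). ATF4 transcript was present in the knockout, at 731 CPM at 24 h and 266 CPM untreated in ATF4KO wells against 703 and 318 CPM in WT wells, so its level does not check the genotype. Of 6 genes expected in U2OS cells, VIM, COL1A1, SPARC, RUNX2 and CDH2 were detected in every library, whereas COL1A2 did not exceed 1.12 CPM. The 6 summed to 3368 to 3428 CPM in ATF4KO wells at 24 h and 5961 to 6080 CPM in untreated ATF4KO wells, and to 2423 to 2483 CPM in WT wells at 24 h and 5665 to 5730 CPM in untreated WT wells. The 7 markers of other cell types summed to 6.15 to 7.11 CPM in ATF4KO wells at 24 h, 8.9 to 11.1 CPM in untreated ATF4KO wells, 10.3 to 11.7 CPM in WT wells at 24 h and 10.4 to 12.3 CPM in untreated WT wells, with CD3E at 0 in every well of both genotypes at 24 h. The part of these marker shifts in the carrier results was not tested.

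In untreated WT wells a few carriers made up most of the family. Levels between genes were compared in TPM, a measure that corrects for length, and the 44 members together reached 1859 TPM. SLC25A3, the phosphate carrier, had 436.6, 415.2 and 423.8 TPM in the 3 untreated WT wells and made up 22.9% of the family. SLC25A5, an ADP/ATP carrier, followed with 313.2, 303.4 and 322 TPM, and SLC25A39, a carrier needed for mitochondrial glutathione, with 183.7, 178.7 and 188.3 TPM. These 3 did not overlap one another and together held 49.6% of the family's TPM. The next were the ADP/ATP carrier SLC25A6 at 117 ± 5.47 TPM, the ATP-Mg/phosphate carrier SLC25A23 at 96.8 ± 3.72 TPM and the citrate carrier SLC25A1 at 82.0 ± 2.03 TPM (SD, n = 3 each). From SLC25A37 at 46.9 ± 5.87 TPM downwards, most neighbours in the order overlapped between wells, and only 13 members in all did not overlap the next one. There were 30 members at 10 TPM or more, and SLC25A18, a glutamate carrier, was the only one under 1 TPM. Ranked by CPM instead, the first 6 kept their order, while the largest shift of any member was 11 ranks.

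**Figure D1:**
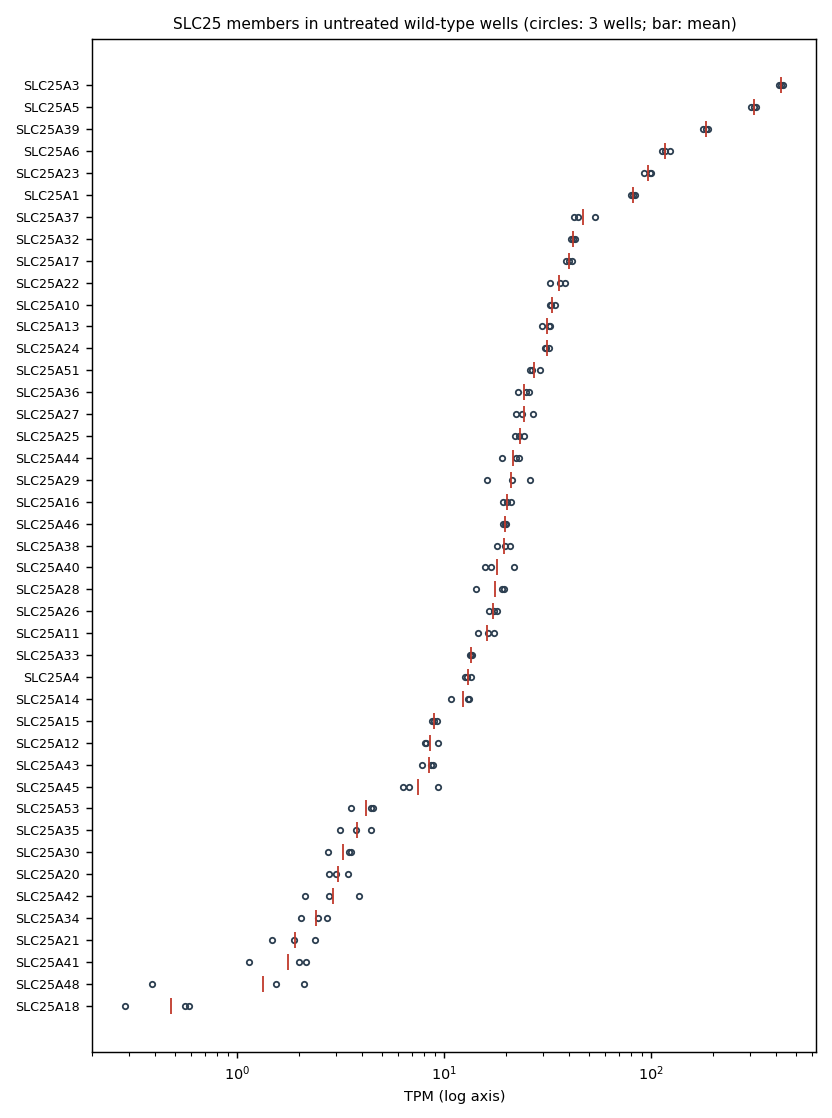
TPM of 43 SLC25 members in the 3 untreated WT wells, on a log axis (circles, wells; bar, mean). SLC25A3, SLC25A5 and SLC25A39 stand at the top at 425.2, 312.9 and 183.6 TPM, and the lowest member, SLC25A18, averaged 0.478 TPM.

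Carrier transcripts were higher or lower after dimerizer than in untreated wells in both genotypes. At 24 h 20 members were higher and 10 lower in ATF4KO cells than in untreated ATF4KO cells, which is 45.5 and 22.7% of the 44, against 32.4 and 33% of all tested genes. In WT cells 17 members were higher and 11 lower at 24 h, which is 38.6 and 25% of the members, against 33 and 32.4% of all tested genes. Calls are from edgeR's quasi-likelihood test with Benjamini-Hochberg adjustment over all tested genes, at an adjusted p under 0.05. The median change of the members at 24 h was 0.15 on the log2 scale in ATF4KO cells and 0.05 in WT cells, against -0.03 and -0.02 for all tested genes. As a share of all counts, the members took 0.238 ± 0.00147% at 24 h and 0.204 ± 0.00123% at 0 h in ATF4KO wells, and 0.216 ± 0.00172% at 24 h and 0.201 ± 0.0035% at 0 h in WT wells (SD, n = 3 each).

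The number of called members grew from 2 to 16 h and no further at 24 h, and the shares of all tested genes called also grew from 2 to 16 h. In ATF4KO cells it was 3 higher (5 without untreated replicate 1) and 2 lower at 2 h (all genes 9.85 and 8.5%), 11 higher and 6 lower at 4 h (22.1 and 20.3%), 17 higher and 8 lower at 8 h (30.7 and 31.1%), and 22 higher and 12 lower at 16 h (33 and 32.7%). In WT cells it was 6 higher and 7 lower at 2 h (12.2 and 10.4%), 14 higher and 6 lower at 4 h (23.6 and 21.1%), 14 higher and 9 lower at 8 h (29.7 and 29.6%), and 19 higher and 10 lower at 16 h (33.7 and 32.8%). These comparisons share the untreated wells of their genotype. At 24 h 16 members were higher in both genotypes, which is 80% of the ATF4KO list and 94.1% of the WT list, and 7 were lower in both, which is 70% of the ATF4KO list and 63.6% of the WT list. The same overlap over all tested genes was not computed, so these shares cannot be read as a trait of the carriers. SLC25A14, SLC25A18, SLC25A21, SLC25A40 and SLC25A53 were called at no time in either genotype.

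**Figure D2:**
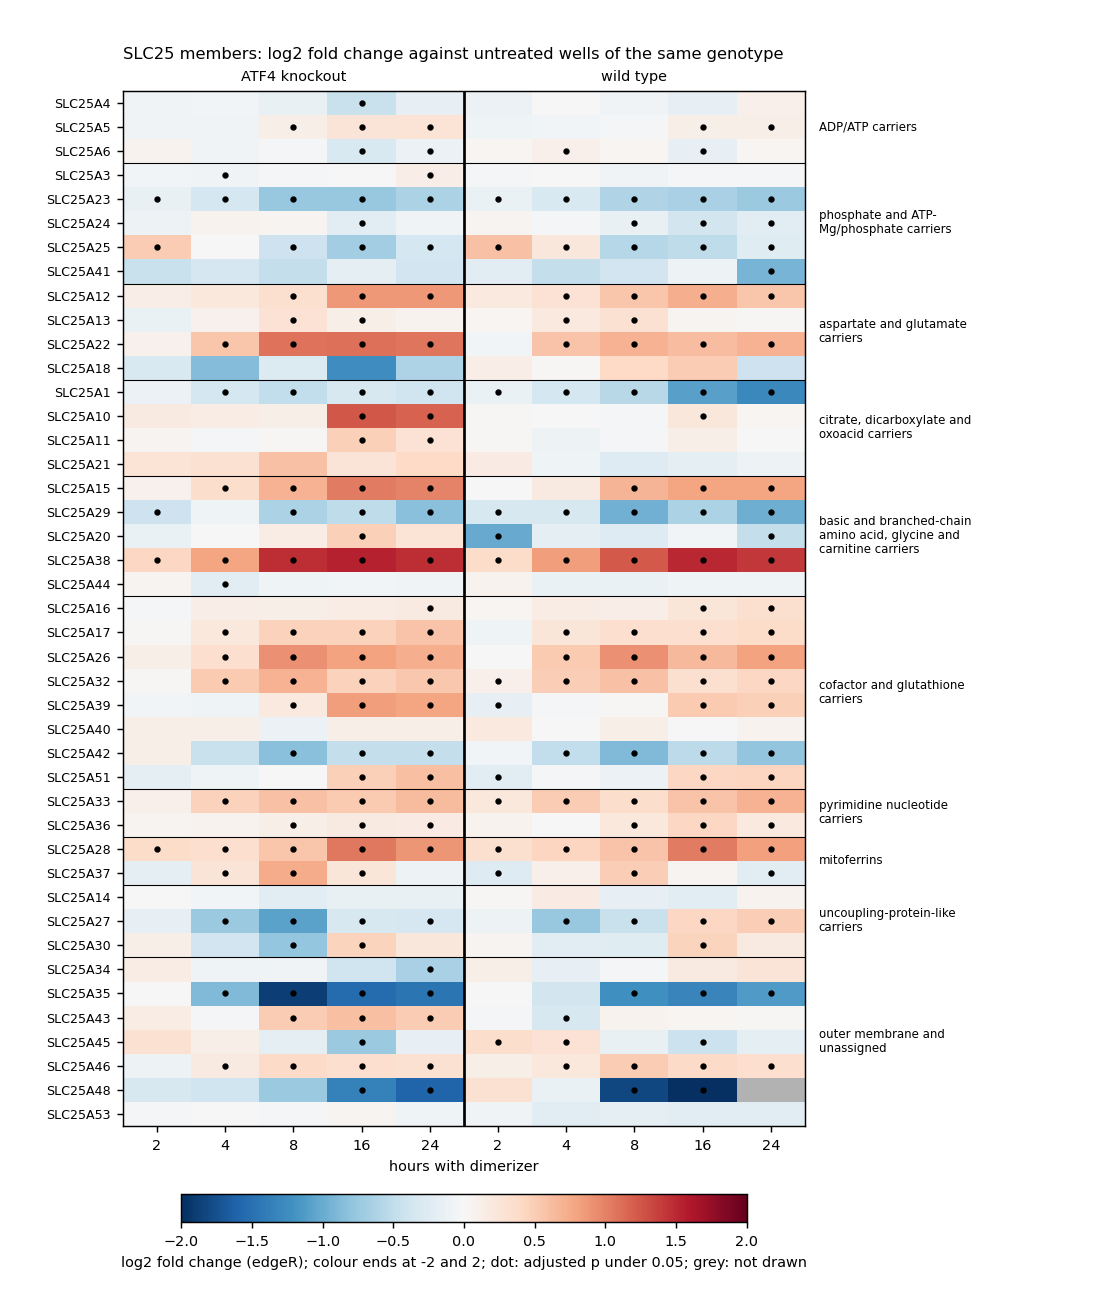
Log2 fold change of 43 SLC25 members against untreated wells of the same genotype at 2, 4, 8, 16 and 24 h, ATF4 knockout on the left and wild type on the right, in rows grouped by role (red, higher; blue, lower; dot, adjusted p under 0.05; grey, not drawn because of 3 or fewer counts). SLC25A38 is red from 2 h on in both genotypes and reaches 1.47 in the knockout and 1.41 in wild type at 24 h.

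Of the 9 cofactor and glutathione carriers, 7 were higher and 1 lower at 24 h in ATF4KO cells, and 7 were higher and 1 lower in WT cells, with medians of 0.56 and 0.41 on the log2 scale, against 32.4 and 33% of all tested genes in ATF4KO cells, 33 and 32.4% in WT cells, and medians of -0.03 and -0.02. SLC25A39 had 258, 259.6 and 268.5 CPM in ATF4KO wells at 24 h, against 154.5, 148.6 and 150.9 CPM untreated, a log2 fold change of 0.79 ± 0.04. In WT wells it had 233.9, 230.2 and 235.2 CPM at 24 h, against 168.9, 160 and 171 CPM untreated, a log2 fold change of 0.48 ± 0.04. Treated and untreated wells were apart in both genotypes, and the rise was called from 8 h in ATF4KO cells and from 16 h in WT cells. The S-adenosylmethionine carrier SLC25A26 changed by 0.73 in ATF4KO cells and 0.80 in WT cells at 24 h on the log2 scale. The folate carrier SLC25A32 changed by 0.54 and 0.41, the NAD carrier SLC25A51 by 0.61 and 0.43, and the peroxisomal carrier SLC25A17 by 0.56 and 0.37, again ATF4KO first and all called. The coenzyme A carrier SLC25A42 was the one that fell, by 0.48 in ATF4KO cells and by 0.79 in WT cells, from a low level of about 4.3 and 4.9 CPM. Its fall in ATF4KO cells lost the call when untreated replicate 2, untreated replicate 3 or 24 h replicate 2 was left out (-0.50 to -0.41). SLC25A51 has a near-identical copy in SLC25A52, and SLC25A26 shares 907 exon bases with LRIG1 on the other strand. SLC25A32 shares exon bases with DCAF13 on the other strand and with AC012213.5 on its own. Reads of all these pairs may therefore have been split by the counting. No source used here gives the strand setting of the counting.

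Of the amino acid carriers, SLC25A38, the glycine carrier that supplies haem synthesis, had 63.3, 64.8 and 64.9 CPM in ATF4KO wells at 24 h, against 25.2, 23.6 and 21.7 CPM untreated. WT wells held 65.8, 64.3 and 67.8 CPM at 24 h, against 24.97, 26.2 and 23.6 CPM untreated. The genotypes nearly coincided at both times, and the log2 fold change was 1.47 ± 0.06 in ATF4KO cells (adjusted p = 7.85e-24) and 1.41 ± 0.06 in WT cells (adjusted p = 1.87e-23). SLC25A38 was already called at 2 h, with 0.42 in ATF4KO and 0.36 in WT cells. The ornithine carrier SLC25A15 rose by 0.99 in ATF4KO and by 0.79 in WT cells at 24 h, and pseudogenes of it hold 3.84% as many counts.

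The glutamate carrier SLC25A22 had 81.1, 87.4 and 83.0 CPM in ATF4KO wells at 24 h, against 43.3, 38.5 and 39.2 CPM untreated, and 68.4, 69.5 and 66.3 CPM in WT wells at 24 h, against 45.5, 38.7 and 40.7 CPM untreated. It was higher in both genotypes, and the ATF4KO wells at 24 h lay above the WT wells. Of the aspartate-glutamate carriers, which serve the malate-aspartate shuttle, SLC25A12 rose at 24 h by 0.86 in ATF4KO and by 0.55 in WT cells. SLC25A13 had values of 0.07 and 0.03 and was not called at 24 h. At 8 h it was called higher in both genotypes, averaging 83.2 CPM in ATF4KO wells against 68.4 CPM untreated, and 67.2 CPM in WT wells against 54.5 CPM untreated. METAP1D, which shares 181 exon bases with SLC25A12 on the other strand, rose by 0.53 in ATF4KO and by 0.66 in WT cells. The part of METAP1D in the SLC25A12 counts was not tested. In limma on log2(TPM + 1), the SLC25A12 values at 24 h were 0.20 in ATF4KO cells (adjusted p = 0.349; 0.39 and 0.0702 without untreated ATF4KO column 3) and 0.19 in WT cells (adjusted p = 0.369). SLC25A29, a carrier of basic amino acids, moved the other way. It had 11.1, 10.5 and 9.90 CPM in ATF4KO wells at 24 h, against 20.2, 16.5 and 19.3 CPM untreated, and 9.06, 11.3 and 8.91 CPM in WT wells at 24 h, against 18.1, 22.2 and 18.6 CPM untreated. Treated and untreated wells did not overlap, and SLC25A29 fell by 0.84 in ATF4KO cells (SE 0.11, adjusted p = 6.02e-09) and by 0.98 in WT cells (SE 0.11, adjusted p = 1.93e-10) on the log2 scale.

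The mitoferrins, which carry iron, followed different courses. SLC25A28 (mitoferrin-2) had 22.2, 19.0 and 20.4 CPM in ATF4KO wells at 24 h, against 10.6, 11.7 and 10.9 CPM untreated, and 21.8, 20.3 and 21.2 CPM in WT wells at 24 h, against 12.1, 10.1 and 13.3 CPM untreated. It stood higher at 24 h in every well of both genotypes, with log2 fold changes of 0.89 ± 0.09 in ATF4KO cells and 0.82 ± 0.09 in WT cells (edgeR adjusted p = 1.77e-11 and 9.41e-11). SLC25A37 (mitoferrin-1) averaged 62.3, 55.3, 73.8, 103.8, 73.1 and 57.6 CPM at 0, 2, 4, 8, 16 and 24 h in ATF4KO wells and 67.7, 57.2, 73.1, 95.6, 70.4 and 58.6 CPM in WT wells. It peaked at 8 h, with log2 fold changes of 0.74 in ATF4KO and 0.49 in WT cells, and at 24 h it was -0.11 in ATF4KO cells, not called, and -0.21 in WT cells, called. Without untreated WT replicate 1, the WT change at 24 h was -0.09 (adjusted p = 0.24). Both pyrimidine nucleotide carriers were higher at 24 h, SLC25A33 by 0.63 in ATF4KO and 0.70 in WT cells and SLC25A36 by 0.16 and 0.19. The ATF4KO call of SLC25A36 was lost without untreated replicate 2 or 24 h replicate 2 (0.12 to 0.14).

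Promoter sequence was read for every member with an entry. RefSeq windows of GRCh38.p14, 250 bases before to 50 after a start, were found for 37 of the 44 members (47 windows), and among those without an entry were SLC25A16, SLC25A30, SLC25A32, SLC25A35, SLC25A37 and SLC25A41. The E-box letters CACGTG stood on either strand in 17% of the members' windows, against 7.26% of all 35116 windows. The members were SLC25A13, SLC25A22, SLC25A26, SLC25A33, SLC25A36, SLC25A38, SLC25A46 and SLC25A51. Of these 8, 7 were called higher at 24 h in ATF4KO cells and 7 in WT cells, with SLC25A13 uncalled in each and none lower. Of all tested genes, whatever their promoters, 32.4% were called higher in ATF4KO cells and 33% in WT cells. Of the other 29 matched members, 10 were higher and 9 lower in ATF4KO cells, and 7 were higher and 8 lower in WT cells. The share called higher among all genes with CACGTG in a window was not computed, so this split of the members lacks its background. The cyclic AMP response element TGACGTCA stood in 6.38% of the members' windows (SLC25A25, SLC25A33, SLC25A36) against 1.85% of all windows. The C/EBP-ATF element TGATGNAA, the kind of composite site at which ATF4 is known to bind, stood in 2.13% of the members' windows (SLC25A11) against 3.62% of all. The NRF1 element stood in none of the members' windows against 1.24% of all. The stretches shown are the 100 bases before the start of members that hold one of these motifs there. Capitals mark CACGTG, and in SLC25A33 also TGACGTCA; in SLC25A11, shown as the only holder of the ATF element, they mark TGATGNAA on the other strand. No motif overlaps another in these stretches.
SLC25A38 (chr3:39383270-39383369, plus strand): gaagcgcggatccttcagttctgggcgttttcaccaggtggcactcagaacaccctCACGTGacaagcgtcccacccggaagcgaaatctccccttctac
SLC25A26 (chr3:66220901-66221000, plus strand): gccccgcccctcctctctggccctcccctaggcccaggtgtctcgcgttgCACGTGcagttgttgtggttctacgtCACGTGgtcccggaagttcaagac
SLC25A33 (chr1:9539365-9539464, plus strand): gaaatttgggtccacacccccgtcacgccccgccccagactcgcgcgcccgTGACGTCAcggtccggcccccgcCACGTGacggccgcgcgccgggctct
SLC25A46 (chr5:110738907-110739006, plus strand): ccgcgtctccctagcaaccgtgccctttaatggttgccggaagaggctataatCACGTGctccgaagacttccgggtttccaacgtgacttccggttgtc
SLC25A51 (chr9:37904128-37904227, minus strand): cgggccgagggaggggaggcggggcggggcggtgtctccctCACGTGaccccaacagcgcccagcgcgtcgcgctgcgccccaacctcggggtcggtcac
SLC25A11 (chr17:4940047-4940146, minus strand): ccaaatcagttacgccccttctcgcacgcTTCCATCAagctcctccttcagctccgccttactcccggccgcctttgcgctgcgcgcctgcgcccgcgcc

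Beside these sequences, SLC25A46, an outer-membrane member of the family, rose at 24 h by 0.31 in ATF4KO and 0.34 in WT cells, and SLC25A26 carries the E-box letters at 2 places of the printed stretch. Windows at other starts of SLC25A26 and of SLC25A22 hold none of the motifs, and which start the cells used was not examined. SLC25A11, the oxoglutarate carrier of the malate-aspartate shuttle, changed by 0.29 in ATF4KO cells, which was called, and by -0.00 in WT cells, which was not. It shares 244 exon bases with RNF167 on the other strand, which holds 20230 counts in all against 6863 for SLC25A11. RNF167 rose by 0.79 in ATF4KO and by 0.55 in WT cells at 24 h, and the part of this overlap in the result was not tested. In limma on log2(TPM + 1) the ATF4KO value of SLC25A11 was -0.02 (adjusted p = 0.907), and 0.05 (adjusted p = 0.801) without untreated ATF4KO column 3, whose TPM correlated with its own counts at only 0.498. These motif counts carry no test, and binding of any factor was not measured.

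The ADP/ATP carriers and the phosphate carrier SLC25A3 changed little at 24 h, with calls in both directions among them. Of the 3 ADP/ATP carriers, SLC25A5 had 262.1, 272.1 and 276.9 CPM in ATF4KO wells at 24 h, against 219.9, 225 and 228.7 CPM untreated, and 246.4, 251.1 and 253.9 CPM in WT wells at 24 h, against 234.6, 226.6 and 231.9 CPM untreated. Treated and untreated wells did not overlap in either genotype, and the log2 fold changes were 0.27 in ATF4KO and 0.11 in WT cells. SLC25A4, the heart and muscle form, was called at 24 h in neither genotype (-0.16 and 0.09). SLC25A3 had 389.1, 385.8 and 400.6 CPM in ATF4KO wells at 24 h, against 349.9, 362.8 and 357.2 CPM untreated, and 346.6, 347.6 and 353.6 CPM in WT wells at 24 h, against 365.5, 344.3 and 356.6 CPM untreated. It was higher in ATF4KO cells (0.14, called), whereas the WT wells overlapped (-0.03, not called). In limma on log2(TPM + 1) the calls of both were absent: SLC25A3 in ATF4KO cells had 0.01 (adjusted p = 0.844; 0.02 and 0.775 without untreated ATF4KO column 3), and SLC25A5 in WT cells 0.06 (adjusted p = 0.289).

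Of the calcium-regulated ATP-Mg/phosphate carriers, SLC25A23 fell by 0.63 in ATF4KO and by 0.74 in WT cells at 24 h. SLC25A25 was the early mover: it had 56.5, 59.9 and 68.6 CPM in ATF4KO wells at 2 h, against 41.8, 43.4 and 43.8 CPM untreated, and 67.4, 70.5 and 68.8 CPM in WT wells at 2 h, against 44.4, 46.2 and 47.4 CPM untreated. All 2 h wells were above all untreated wells, with log2 fold changes of 0.52 in ATF4KO and 0.59 in WT cells, and by 8 h SLC25A25 had fallen below the untreated level, by 0.41 in ATF4KO and by 0.57 in WT cells. The ATF4KO value at 8 h was -0.07 in limma on log2(TPM + 1) (adjusted p = 0.731). SLC25A25-AS1, on the other strand over 665 exon bases, changed by 0.01 in ATF4KO and -0.05 in WT cells at 24 h. It was not examined at 2 or 8 h, so its part in the SLC25A25 changes at those times was not tested.

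SLC25A35, a member without an assigned substrate in humans, fell most among the members above 1 CPM in ATF4KO cells. It had 1.63, 1.23 and 1.81 CPM in ATF4KO wells at 24 h, against 3.95, 4.63 and 4.33 CPM untreated, and 1.64, 1.499 and 2.33 CPM in WT wells at 24 h, against 3.82, 3.84 and 4.14 CPM untreated. The wells did not overlap, and SLC25A35 fell by 1.47 in ATF4KO cells (SE 0.21, adjusted p = 8.92e-08) and by 1.14 in WT cells (SE 0.21, adjusted p = 1.1e-05) on the log2 scale. In limma on log2(TPM + 1) without untreated ATF4KO column 3, the ATF4KO value was -0.50 (adjusted p = 0.0537). It shares 1293 exon bases with RANGRF on the other strand, and RANGRF rose by 1.05 in ATF4KO and by 0.92 in WT cells; the part of this overlap in the result was not tested. SLC25A48, the least counted member, held 2 counts in WT wells at 24 h and 33 counts in untreated WT wells, a ratio of counts per library size of 0.0698 (exact 95% interval 0.00811 to 0.273, counting error only). It overlaps CXCL14 on the other strand over 78 exon bases, and CXCL14 fell by 7.42 in ATF4KO and by 7.39 in WT cells on the log2 scale; its part in the SLC25A48 counts was not tested.

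**Figure D3:**
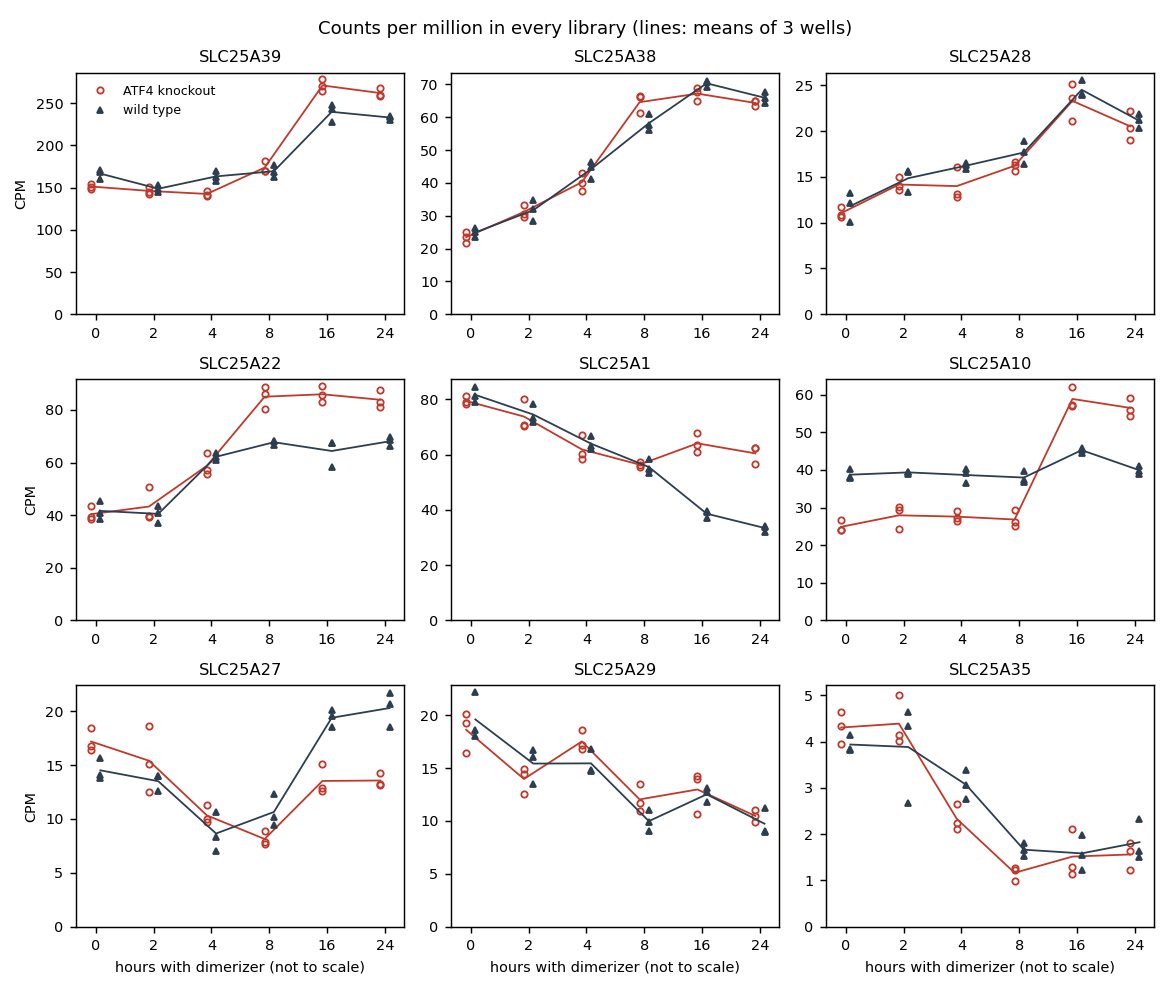
CPM of 9 SLC25 members in every library at 0, 2, 4, 8, 16 and 24 h (open red circles, ATF4 knockout; filled dark triangles, wild type; lines, means of 3 wells). SLC25A38 and SLC25A28 rise together in both genotypes, whereas the lines of SLC25A1 part after 8 h. The knockout line of SLC25A10 lies below that of wild type until 8 h and above it from 16 h. SLC25A10 averages 56.5 CPM at 24 h in the knockout and 39.9 CPM in wild type. For SLC25A27 the knockout line lies above that of wild type until 4 h and below it from 8 h.

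The response of several carriers differed between the genotypes from 8 h on. The change in ATF4KO cells minus the change in WT cells passed the test at 24 h for 14 members, 11 with a positive difference and 3 with a negative one, which is 25 and 6.82% of the 44, against 17.7 and 12.1% of all tested genes. At 16 h there were 9 and 3 such members (all genes 16.7 and 11%), and at 8 h 7 and 2 (11.3 and 6.99%). The 7 at 8 h became 3 or 4 when any 16 h or 24 h well of either genotype, untreated WT replicate 1, WT 8 h replicate 3, ATF4KO 4 h replicate 3 or ATF4KO 8 h replicate 1 was left out, and the 2 became 1 without any of 7 untreated or 8 h wells. At 2 and 4 h none passed in edgeR, in DESeq2 or in limma on TPM, while 5 and 3 members had an unadjusted p under 0.05 in edgeR, and of all genes 0.0105% were called positive and 0.289% negative at 2 h, and 0.887% positive and 2.39% negative at 4 h. A negative difference of 1 member passed at 4 h without untreated WT replicate 3 or untreated ATF4KO replicate 1. The median difference over the members at 24 h was 0.13, against 0.05 over all tested genes.

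Among called members, the carboxylate carriers SLC25A10 and SLC25A1 had the largest positive differences at 24 h. SLC25A10, the dicarboxylate carrier that exchanges malate or succinate for phosphate, had 59.1, 54.3 and 56.0 CPM in ATF4KO wells at 24 h, against 26.6, 24.0 and 24.0 CPM untreated. In WT wells it had 41.1, 39.7 and 38.9 CPM at 24 h, against 40.3, 37.9 and 38.0 CPM untreated. The knockout started below WT and ended above it, while the WT wells at 24 h overlapped the untreated ones. The log2 fold change was 1.19 ± 0.06 in ATF4KO cells (adjusted p = 6.56e-21) and 0.04 ± 0.06 in WT cells, and the difference was 1.15 ± 0.09 (adjusted p = 1.59e-14). At 8 h neither genotype had moved (0.11 and -0.04, not called), and at 16 h SLC25A10 had 57.1, 62.2 and 57.4 CPM in ATF4KO wells against 45.8, 44.6 and 45.3 CPM in WT wells. A same-strand gene, AC139530.2, overlaps it over 1221 exon bases but holds 50.2 counts in all, against 16553 for SLC25A10.

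SLC25A1, which exports citrate for lipid synthesis, had 62.5, 56.7 and 62.3 CPM in ATF4KO wells at 24 h, against 79.0, 81.3 and 78.2 CPM untreated. In WT wells it had 34.3, 34.0 and 32.1 CPM at 24 h, against 84.7, 79.2 and 81.1 CPM untreated. It was lower in both genotypes, but the WT wells at 24 h lay far under the ATF4KO wells. SLC25A1 fell by 0.40 in ATF4KO cells and by 1.29 in WT cells (adjusted p = 5.84e-23), and the difference was 0.89 ± 0.08 (adjusted p = 1.62e-12). Until 8 h the courses ran together, with means of 79.5, 73.8, 61.9 and 56.4 CPM at 0, 2, 4 and 8 h in ATF4KO wells and 81.7, 74.6, 64.0 and 55.5 CPM in WT wells.

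SLC25A20, the carnitine-acylcarnitine carrier of fatty acid oxidation, had 4.52, 5.06 and 4.25 CPM in ATF4KO wells at 24 h, against 4.68, 3.12 and 3.75 CPM untreated, and 2.76, 2.25 and 2.33 CPM in WT wells at 24 h, against 3.62, 3.05 and 3.51 CPM untreated. The ATF4KO wells overlapped and the WT wells did not. The difference at 24 h was 0.76 ± 0.23 (adjusted p = 0.0116), but 0.67 without WT 24 h replicate 2 (adjusted p = 0.054), and it was not called by DESeq2 (0.75, adjusted p = 0.0758). In WT cells SLC25A20 also had an early dip, with 1.56, 1.67 and 1.84 CPM at 2 h, which was a fall by 1.00 on the log2 scale (adjusted p = 3.92e-05). ATF4KO wells had 3.01, 3.51 and 3.81 CPM at 2 h, not called against untreated wells, but the difference between genotypes at 2 h did not pass either. Positive differences at 24 h were also found for SLC25A43 (0.49 ± 0.13), SLC25A22 (0.36 ± 0.10), SLC25A39 (0.31 ± 0.05), SLC25A17 (0.19 ± 0.08), SLC25A3 (0.16 ± 0.04), SLC25A5 (0.15 ± 0.05) and SLC25A32 (0.13 ± 0.05). SLC25A17 lost the call when any of 18 of the 36 libraries was left out (0.14 to 0.20), SLC25A32 with any of 16 (0.11 to 0.13), and SLC25A5 without WT 24 h replicate 1 or ATF4KO 24 h replicate 3 (0.12 to 0.13). In limma on log2(TPM + 1) the differences of SLC25A3 (0.05), SLC25A5 (0.07), SLC25A32 (0.32), SLC25A39 (0.18) and SLC25A43 (0.52) were not called.

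Negative differences were fewer. SLC25A27, also called UCP4, had 13.3, 13.2 and 14.3 CPM in ATF4KO wells at 24 h, against 16.4, 18.4 and 16.7 CPM untreated, and 20.7, 21.7 and 18.6 CPM in WT wells at 24 h, against 14.1, 13.8 and 15.7 CPM untreated. The 2 genotypes moved in opposite directions, with a log2 fold change of -0.34 ± 0.10 in ATF4KO cells and 0.49 ± 0.10 in WT cells and a difference of -0.83 ± 0.15 (adjusted p = 1.51e-05). The WT value of SLC25A27 was 0.33 in limma on log2(TPM + 1) (adjusted p = 0.0847). Both had first dropped, to 7.68, 7.90 and 8.83 CPM in ATF4KO wells and 9.40, 12.3 and 10.2 CPM in WT wells at 8 h. SLC25A34, a low member of unassigned substrate, had 1.63, 1.95 and 1.95 CPM in ATF4KO wells at 24 h, against 3.43, 2.40 and 2.97 CPM untreated, and 3.80, 3.07 and 3.18 CPM in WT wells at 24 h, against 2.70, 2.96 and 2.81 CPM untreated. The ATF4KO wells at 24 h lay under all others; the fall in ATF4KO cells was by 0.65 (SE 0.21, adjusted p = 0.00733), and the difference of -0.90 ± 0.29 (adjusted p = 0.0145) was not called by DESeq2 (-0.92, adjusted p = 0.0552). The ADP/ATP carrier SLC25A6 had 169.9, 171 and 179.4 CPM in ATF4KO wells at 24 h, against 177.6, 198.5 and 187.2 CPM untreated, and 154.1, 160.8 and 157.8 CPM in WT wells at 24 h, against 148.6, 150.6 and 160.8 CPM untreated. Treated and untreated wells of SLC25A6 overlapped in both genotypes. Its difference of -0.15 ± 0.05 (adjusted p = 0.0251) lost the call without untreated WT replicate 1 or 2 or untreated ATF4KO replicate 2 (-0.14 to -0.11, adjusted p up to 0.121).

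**Figure D4:**
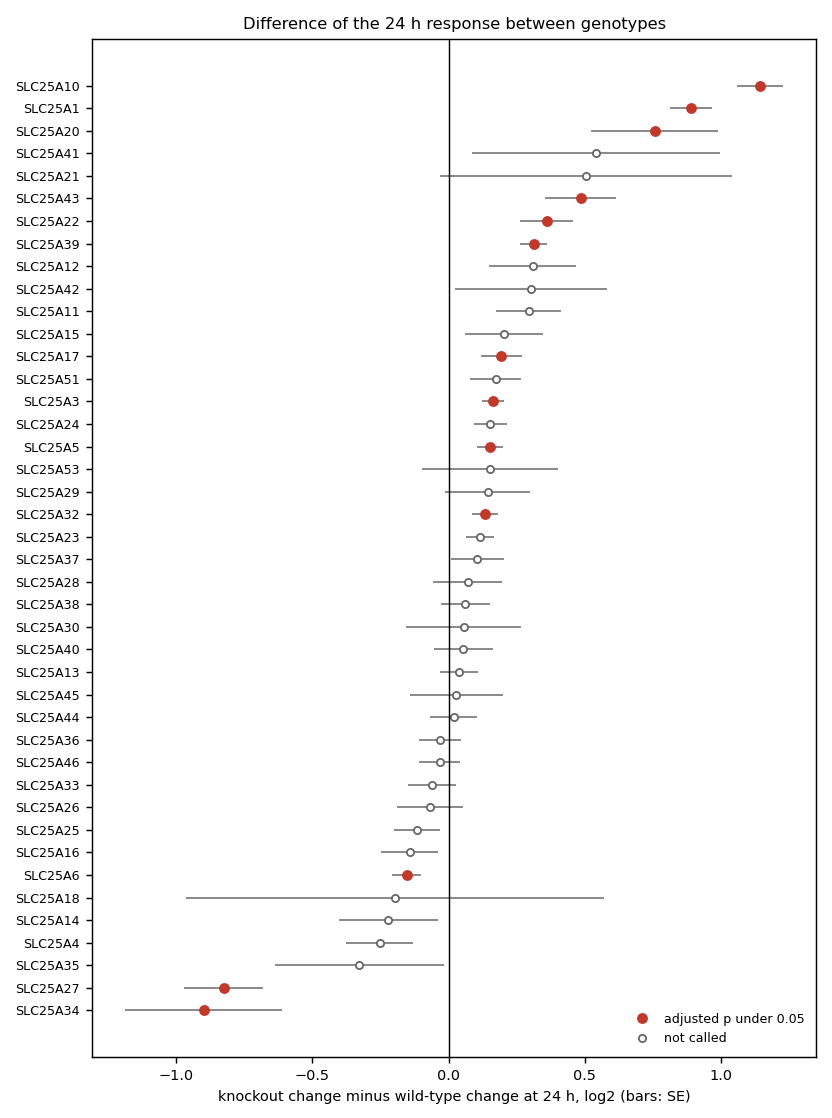
ATF4 knockout change minus wild-type change at 24 h for 42 SLC25 members, log2 scale, with SE (filled, adjusted p under 0.05; SLC25A48 is left out because of its 2 counts in WT wells). SLC25A10 at 1.15 and SLC25A1 at 0.89 lie farthest to the right, and SLC25A34 at -0.90 and SLC25A27 at -0.83 farthest to the left.

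Before dimerizer the genotypes differed in 6 members, 3 higher and 3 lower in ATF4KO cells, which is 6.82% of the members each way, against 11.6 and 11.9% of all tested genes. This comparison uses the same untreated wells as the differences of response. SLC25A10 was lower in untreated ATF4KO wells by 0.65 (SE 0.06, adjusted p = 1.01e-10) and SLC25A39 by 0.14 (SE 0.04, adjusted p = 0.00326) on the log2 scale, with the wells given above. SLC25A13 was higher, with 72.1, 64.8 and 68.2 CPM in untreated ATF4KO wells against 57.2, 52.2 and 54.2 CPM in untreated WT wells (0.32 ± 0.05, adjusted p = 2.16e-06). SLC25A6 was higher by 0.29 ± 0.04 (adjusted p = 5.5e-08). SLC25A46, with 40.4, 39.6 and 39.2 CPM in untreated ATF4KO wells against 36.9, 34.5 and 35.5 CPM in untreated WT wells, was higher by 0.15 ± 0.05 (adjusted p = 0.0383), a call lost without any of 5 of the 6 untreated wells, all but WT replicate 1 (0.13 to 0.16, adjusted p up to 0.119). The untreated wells of these 5 members did not overlap between genotypes. In limma on log2(TPM + 1) the untreated values were -0.30 for SLC25A10 (adjusted p = 0.241), 0.20 for SLC25A13 (adjusted p = 0.28) and -0.05 for SLC25A39 (adjusted p = 0.687). These limma values include untreated ATF4KO column 3, whose TPM correlated with its own counts at only 0.498, so they are a weak check on the counts. With that column left out, limma called 2 members higher and 2 lower, against 1 and 2 with it.

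Genes that work with these carriers were counted in the same way, beside 32.4% higher and 33% lower of all tested genes at 24 h in ATF4KO cells, 33 and 32.4% in WT cells, and 17.7% positive and 12.1% negative in the difference. On the import route of the carriers, 13 of 15 tested genes were higher and 1 lower at 24 h in ATF4KO cells, and 12 were higher and 1 lower in WT cells, with medians of 0.73 and 0.48 on the log2 scale. TOMM40, the pore of the outer membrane, rose by 1.49 in ATF4KO and by 1.06 in WT cells, and the chaperone TIMM9 by 1.86 and 1.63. The difference between genotypes was positive for 12 of these genes and negative for 1, TIMM10B (-0.32), with a median of 0.31 against 0.05 over all tested genes. Of 6 tested mitochondrial folate enzymes, 5 were higher in each genotype, and the difference was negative for 4, among them SHMT2 (-1.27) and MTHFD2 (-0.96), whereas that of the folate carrier SLC25A32 was positive. All 4 enzymes of the malate-aspartate shuttle differed: GOT1 rose by 1.68 in WT cells and fell by 0.18 in ATF4KO cells, a difference of -1.86, and the differences of GOT2, MDH1 and MDH2 were positive. Around the citrate carrier, 6 of 9 genes of citrate formation and use had a positive difference and none a negative one, with CS at 0.33 and IDH3G at 0.52.

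In haem and iron-sulphur synthesis, 10 of 15 genes were higher and 3 lower in ATF4KO cells at 24 h, and 9 were higher and 2 lower in WT cells, UROD by 0.90 and 0.61. Of 7 genes of glutathione synthesis and redox, 5 were higher and 1 lower in ATF4KO cells, and 6 were higher and 1 lower in WT cells, while the difference was negative for 6, with GCLM at -1.09 and GCLC at -0.82. That of the glutathione-linked carrier SLC25A39 was positive. Among the enzymes of glutamate, proline and ornithine, 4 of 9 were higher and 5 lower in ATF4KO cells, and 4 were higher and 4 lower in WT cells, with PYCR1 up by 1.15 and 1.54 and OAT down by 0.90 in each. Of 21 mitochondrial transporters outside the family, 9 were higher and 6 lower in ATF4KO cells, and 9 were higher and 8 lower in WT cells, with medians of -0.01 in each, against -0.03 and -0.02 for all tested genes. Of the 4 tested relatives with other symbols, MTCH1 and MTCH2 of the outer membrane rose in both genotypes, by 0.64 and 0.71 in ATF4KO and by 0.26 and 0.45 in WT cells, and UCP2 fell by 0.67 and by 0.82.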

How the data were processed

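Per the labels, total RNA from 24-well plates was made into directional libraries, and the submitters' processing notes name FastQC 0.11.5, Salmon 0.9.1 and GRCh38. The authors deposited expected counts per gene (decimals present; rounded here before fitting) and TPM, which the authors had already scaled for length and library size. Symbols came from the TPM table, joined by identifier; positions are from GENCODE 29 (40 of 44 members by identifier and version). Counts were filtered with filterByExpr, scaled by TMM and tested in 1 model of 12 group means (edgeR 4.0.16 in R 4.3.3, quasi-likelihood), adjusted by Benjamini-Hochberg over 19043 genes within each of 16 contrasts. CPM use TMM-scaled library sizes, and SE is the log2 fold change divided by the root of F. The scripts were tested on simulated data. For the 3 untreated knockout libraries the TPM column most like the counts was not their own, so TPM served for untreated WT levels and as an alternative.

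The members, roles and companion lists were chosen with earlier results of these data known. Values of each library are given for the called members with the 3 largest changes each way at 24 h, in the difference and at 0 h (at least 1 CPM), and for the 3 highest in TPM. SLC25A20 and SLC25A25 at 2 h, SLC25A22, SLC25A37, SLC25A48 and others named outside this rule were chosen after their values were seen. Replicate wells differed by more than counting noise (chi-square per degree of freedom 1.34 to 2.61 over 36 pairs). The alternatives tried were a replicate block, each library left out in turn, DESeq2 1.42.0, RLE factors, all genes kept, the contrast's own groups alone, and limma 3.58.1 on log2(TPM + 1) or log2(TPM + 0.1). The results of 1 member and 1 marker gene are not reported here, though counts and medians over the members and the marker sums include them.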

Additional observations from a re-analysis of the deposited data

Results flagged for a closer look

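The change in ATF4KO cells minus that in WT cells passed edgeR's test (adjusted p under 0.05) for the 32 values of SLC25 members given here, all on the log2 scale. These values share the untreated wells of both genotypes.

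At 8 h the difference was 0.133 for SLC25A5, 0.387 for SLC25A22, -0.151 for SLC25A23, 0.205 for SLC25A24, -0.632 for SLC25A27, 0.251 for SLC25A37, 0.181 for SLC25A39 and 0.442 for SLC25A43. SLC25A23, SLC25A24 and SLC25A37 passed at 8 h and not at 16 or 24 h. Pseudogenes of SLC25A24 hold 6.66% as many counts as SLC25A24 itself. The 8 h call was lost without any of 27 of the 36 libraries for SLC25A37 (0.132 to 0.263, adjusted p up to 0.344), any of 26 for SLC25A5 (0.0981 to 0.14), any of 13 for SLC25A24 (0.17 to 0.173), any of 13 for SLC25A39 (0.146 to 0.151), any of 8 for SLC25A23 (-0.157 to -0.124) and any of 2 for SLC25A43 (0.346 to 0.375).

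At 16 h it was 0.765 for SLC25A1, 0.134 for SLC25A5, -0.148 for SLC25A6, 1.02 for SLC25A10, 0.374 for SLC25A11, 0.473 for SLC25A22, -0.736 for SLC25A27, 0.143 for SLC25A32, -0.245 for SLC25A36, 0.319 for SLC25A39 and 0.56 for SLC25A43. The pyrimidine nucleotide carrier SLC25A36 was higher in both genotypes at 16 h, by 0.17 in ATF4KO cells and by 0.42 in WT cells. The 16 h call was lost without any of 14 libraries for SLC25A5 (0.0937 to 0.132) and for SLC25A32 (0.105 to 0.135), any of 5 for SLC25A6 (-0.152 to -0.108), any of 2 for SLC25A11 (0.29 to 0.319) and any of 2 for SLC25A36 (-0.213 to -0.185).

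At 24 h it was 0.891 for SLC25A1, 0.163 for SLC25A3, 0.153 for SLC25A5, -0.153 for SLC25A6, 1.15 for SLC25A10, 0.194 for SLC25A17, 0.758 for SLC25A20, 0.361 for SLC25A22, -0.825 for SLC25A27, 0.134 for SLC25A32, -0.899 for SLC25A34, 0.313 for SLC25A39 and 0.486 for SLC25A43. SLC25A5, SLC25A22, SLC25A27, SLC25A39 and SLC25A43 passed at 8, 16 and 24 h with all libraries in the fit; of these, SLC25A22 and SLC25A27 lost no call when 1 library was left out.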

How the results depend on the processing

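Most of the moved counts of called members came from limma on TPM, which changes both the unit and the test. Under limma on log2(TPM + 1), log2(TPM + 0.1), and log2(TPM + 1) with untreated knockout column 3 left out, WT lower members at 2 h numbered 0, 1 and 1 (7 in edgeR), ATF4KO lower members at 2 h 0, 0 and 0 (2), and positive differences at 8 h 1, 1 and 0 (7). Negative differences at 8 h numbered 1, 1 and 0 (2), those at 16 h 1, 0 and 1 (3), and positive differences at 24 h 5, 5 and 4 (11). WT higher members at 4 h numbered 9 with either pseudocount (14), negative differences at 24 h 1 (3), and untreated higher members 1 (3). Positive differences at 16 h numbered 5 with the pseudocount of 0.1 and with the column left out (9), and ATF4KO lower members at 4 h 3 with the column left out (6). From counts, negative differences at 8 h numbered 1 without the filter, with only the groups of the contrast and in DESeq2. Those at 24 h numbered 1 without the filter, and those at 16 h 5 with only the groups of the contrast. Leaving out 1 library gave 2 to 5 higher members in ATF4KO cells at 2 h, 0 to 1 negative differences at 4 h, and 3 to 8 positive and 1 to 2 negative differences at 8 h. At 24 h it gave 8 to 12 positive and 2 to 4 negative differences.

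In limma with pseudocounts of 1 and 0.1, the ATF4KO change was 0.52 and 0.55 for SLC25A25 at 4 h, -0.17 and -0.19 for SLC25A12 at 8 h, -0.021 and -0.022 for SLC25A11 at 24 h, and 0.34 and 0.35 for SLC25A37 at 24 h, opposite in sign to edgeR. With untreated knockout column 3 left out and a pseudocount of 1, they were 0.23, 0.015, 0.048 and 0.18 in the same order, so that SLC25A12 and SLC25A11 had edgeR's sign again, uncalled, and SLC25A25 and SLC25A37 did not. In 0 of 11 contrasts did every same-numbered pair of wells correlate above 0.1. However, 27 of 36 libraries were on average closest to wells of their own replicate number in the other groups. The main model held no term for the replicate number. With a replicate block, 11 positive and 3 negative differences passed at 24 h. Low members such as SLC25A20, SLC25A34 and SLC25A48 are limited by depth.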
